A study of Mus musculus with 11 samples.

Results

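The 10 genes described here encode neuropeptide Y (Npy), cholecystokinin (Cck) and the tachykinin precursors Tac1 and Tac2, together with receptors for these peptides: Npy1r, Npy2r and Npy5r for neuropeptide Y, Cckbr for cholecystokinin, and Tacr1 and Tacr3 for the tachykinins. They were chosen by gene symbol, each matched to its Ensembl identifier, from the 53465 genes counted in every mouse. Of the 10, 8 passed the filter on low counts and were tested, and Tacr1 and Tacr3 did not pass it. RNA was sequenced from medial prefrontal cortex (mPFC) CRF1+ neurons of 11 mice, 6 naïve and 5 withdrawn. All were male CRF1:GFP reporter mice at least 10 weeks old, in which green fluorescent protein marks cells that express the corticotropin-releasing factor receptor gene Crhr1, and each library came from the fluorescence-sorted cells of 1 mouse. Withdrawn mice had inhaled ethanol vapor intermittently for 5 to 6 weeks, with injections of alcohol and pyrazole (an inhibitor of alcohol dehydrogenase), and were then kept abstinent for 5 to 8 days. Naïve mice had received pyrazole in saline and air in the same chambers. The title and treatment of each sample set its group, but for withdrawn mice 3, 4 and 5 the source name reads control, and the design text gives 5 control and 6 ethanol animals. Where leaving out these 3 mice moved the difference of 1 of the 10 genes by over 1.5 times or turned its sign, the value without them is given too. Tacr3 is the exception, as its difference without these mice was not computed.

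Neuropeptide Y, cholecystokinin and the tachykinins are made as longer precursors that are cut and amidated in dense-core vesicles, and they act on G protein-coupled receptors. In the cortex Npy is known from interneurons, many of which also make somatostatin, and Tac1 from subsets of interneurons, whereas Cck mRNA is found both in pyramidal cells and in a class of interneurons. The Y1 and Y2 receptors mostly inhibit neurons or transmitter release, the CCK-B receptor and the neurokinin receptors mostly excite, and neuropeptide Y and tachykinin signaling have long been studied in relation to alcohol drinking and anxiety.

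The sequences upstream of 3 of the peptide genes are given because these genes mark the range of the data: Cck had the highest level of the 10, Tac1 the largest fitted difference between groups, and Npy the widest spread among naïve mice. Each runs 5′ to 3′ along the gene's strand and covers the 250 bases before the RefSeq start site (build GRCm38.p6). Capitals mark matches, on either strand, to an E-box (CACGTG) or to TGACG, the shorter core of the cyclic AMP response element (CRE). Cck lies on the minus strand, Tac1 and Npy on the plus strand.
Cck, chr9:121495695-121495944: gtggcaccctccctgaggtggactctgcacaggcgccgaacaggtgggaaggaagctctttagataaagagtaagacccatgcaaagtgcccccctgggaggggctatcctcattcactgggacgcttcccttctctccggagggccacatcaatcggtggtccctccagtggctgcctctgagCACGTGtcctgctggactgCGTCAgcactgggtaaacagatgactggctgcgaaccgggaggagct
Tac1, chr6:7554811-7555060: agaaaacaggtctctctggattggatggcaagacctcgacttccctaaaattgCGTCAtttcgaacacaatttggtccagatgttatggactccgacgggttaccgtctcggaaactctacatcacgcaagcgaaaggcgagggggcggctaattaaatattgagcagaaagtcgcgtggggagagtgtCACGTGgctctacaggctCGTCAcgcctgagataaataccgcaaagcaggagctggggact
Npy, chr6:49822460-49822709: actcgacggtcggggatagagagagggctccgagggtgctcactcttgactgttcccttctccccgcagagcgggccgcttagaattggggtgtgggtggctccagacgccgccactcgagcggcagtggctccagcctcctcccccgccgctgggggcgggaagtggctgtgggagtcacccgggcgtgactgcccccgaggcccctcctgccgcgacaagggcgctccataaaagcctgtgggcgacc
The upstream sequence of Cck held an E-box 66 bases and a CRE core 47 bases before the start site. That of Tac1 held an E-box at 61 bases and CRE cores at 197 and 43 bases, and that of Npy held neither motif. All 10 genes matched 1 RefSeq window of 300 bases, which runs from 250 bases before to 50 bases after the start. The other matches were an E-box in Npy5r and in Cckbr, a CRE core in Tacr1 and in Tacr3, and a TATA box (TATAAA) in Tacr3. Over all 32851 windows of this length, 20.8% held the CRE core, 7.15% the E-box, 13.6% the TATA box and 1.79% the full CRE (TGACGTCA, which contains the core), and none of the 10 genes held the full CRE. A match of letters is a description of the window and not evidence that a factor binds there.

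Gene counts ranged from 7351567 to 22244869 per mouse, and a gene with 3 counts or fewer was treated as being at the floor. Levels are given as CPM (counts scaled to the same library size). Before the TMM factors described below were applied, 3 counts were 0.135 to 0.408 CPM in these libraries. Crhr1, whose reporter the cells were sorted on, lay between 42.2 and 136 CPM in all 11 mice. The glutamatergic marker Slc17a7, which was not used in the sort, lay between 738 and 1928 CPM in all 11 mice. The GABAergic genes Gad1 and Gad2 were also present, at 11.2 to 325 and 7.52 to 130 CPM. Naïve mouse 5 stood apart with 15585 genes detected, against 22551 to 31830 in the other mice, and withdrawn mouse 4 had the fewest counts and the highest share of reads outside exons, 48.1%. Because each library started from 160 pg of RNA and was amplified by PCR, limits of this kind cover counting error only. In RNA from sorted cells, fewer cells of a type and less RNA per cell cannot be told apart.

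Levels were first compared between genes within each group, as TPM, which divide counts by exon length and are scaled to the same sum in every mouse. Cck ranked highest in all 11 mice, with a median of 3508 TPM (range 2949.5 to 5259) in naïve mice, where it was the 11th most abundant gene, and of 3288 TPM (2259 to 4633) in withdrawn mice. In naïve mice the order of the medians after Cck was Npy (319 TPM), Cckbr (178), Npy1r (44.2), Tac2 (15.6), Npy5r (10.8), Npy2r (10.2), Tac1 (7.52), Tacr1 (0.783) and Tacr3 (0). Only the steps from Cck to Npy and from Cckbr to Npy1r separated the ranges over the 6 naïve mice, and every other pair of neighbors in this order overlapped. In withdrawn mice Cck (3288 TPM) was followed by Cckbr (143), Npy1r (43.2), Npy (15.1), Npy5r (14.1), Tac2 (13.9) and Npy2r (5.64), with Tac1, Tacr1 and Tacr3 at a median of 0. The ranges of Cck and Cckbr and those of Cckbr and Npy1r did not overlap, and all later neighbors did. Npy was the gene that held its place least. It exceeded Cckbr in 3 of 6 naïve mice, and its TPM ran from 0 to 1223 in naïve and from 0 to 528 in withdrawn mice.

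**Figure D1:**
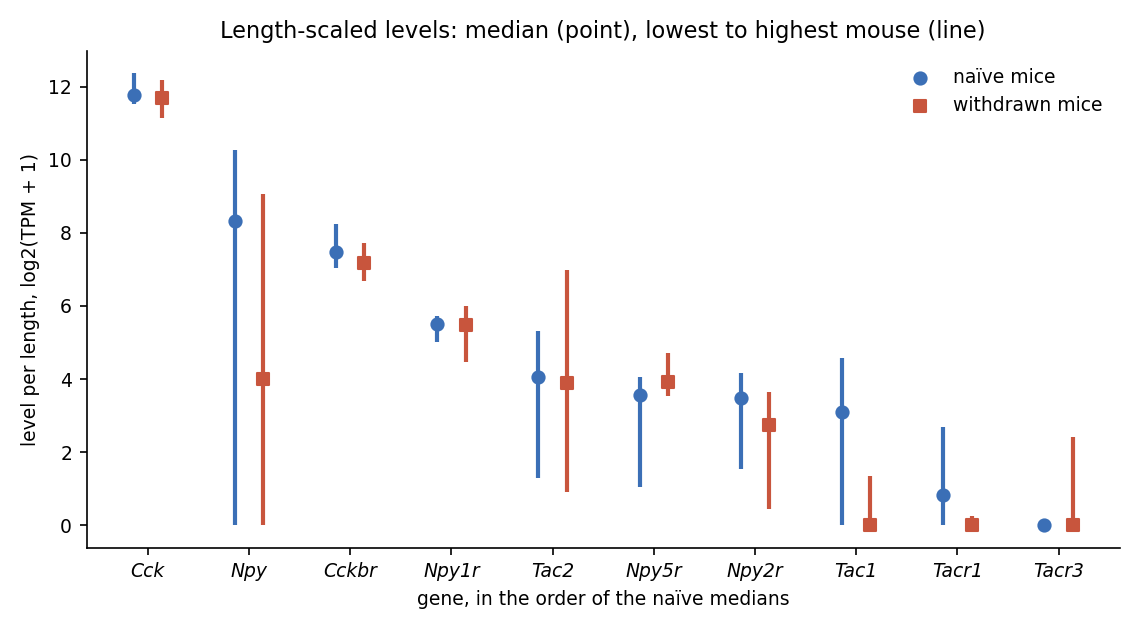
Length-scaled level of each gene on a log2(TPM + 1) axis, with genes ordered by the median of the 6 naïve mice; points are medians, lines run from the lowest to the highest mouse, circles are naïve and squares withdrawn mice. Cck lies above all others in both groups, while the lines of Npy, Tac2 and Tac1 span most of the levels of the lower genes.

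The question put to the groups was whether the level of any of these genes differed after withdrawal from chronic ethanol. None of the 8 tested genes passed an adjusted p of at most 0.05 with a log2 fold change beyond 0.6 by edgeR's quasi-likelihood test, where 1 of 17093 genes, or 0.00585%, did. Of the 8, 2 had an unadjusted p under 0.05, Tac1 and Cckbr, against 7.22% of all genes tested, and both were fitted lower in withdrawn mice, which holds for 2.22% of all genes. In none of the 8 were the groups free of overlap, against 0.948% of all genes. The log2 fold changes of the 8 had a median of -0.33, beside 0.02 for all genes tested, with 2 fitted higher and 6 lower. Of all 17093 genes, 8852 were fitted higher and 8241 lower. DESeq2, which also tested low genes, called 0.887% of the 40831 genes to which it gave an unadjusted p. That number holds genes whether or not they also had the adjusted p that a call needs. Of the 10 genes DESeq2 called 1, Tacr1, and it gave no p for Tacr3.

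**Figure D2:**
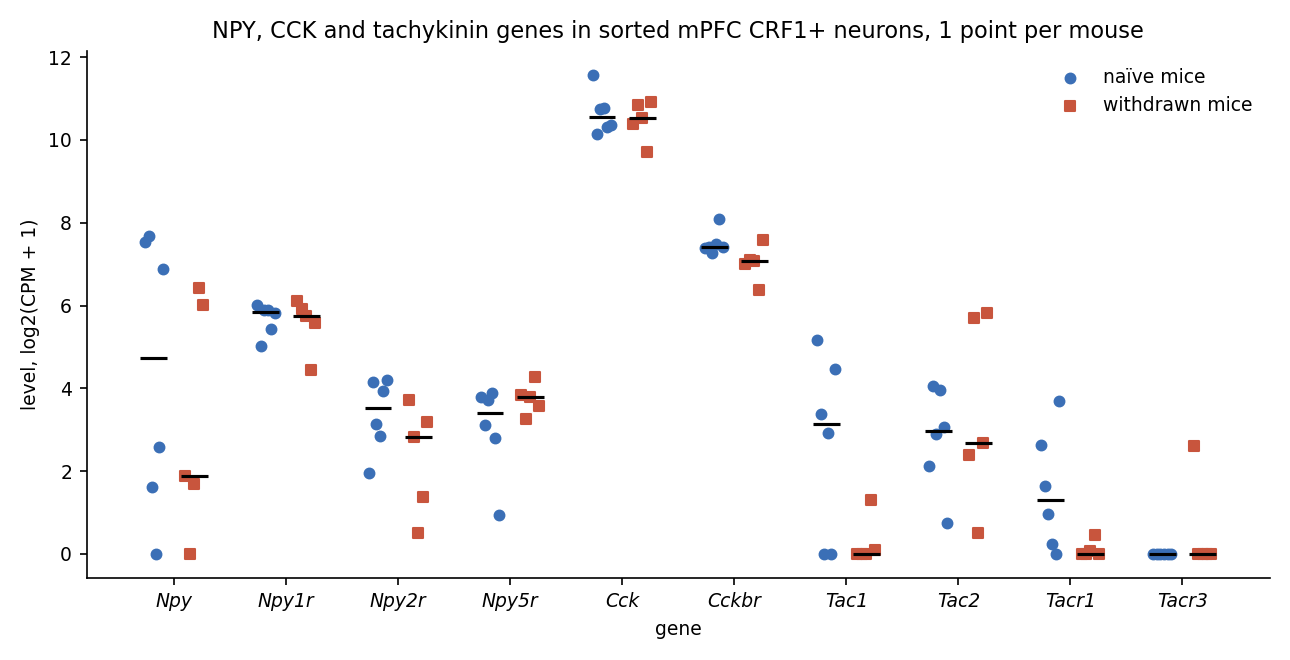
Level of each of the 10 genes in each mouse on a log2(CPM + 1) axis; circles are the 6 naïve mice, squares the 5 withdrawn mice and bars the group medians. Circles and squares overlap for every gene, and Tac1 and Tacr1 lie at or near 0 in the withdrawn mice.

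**Figure D3:**
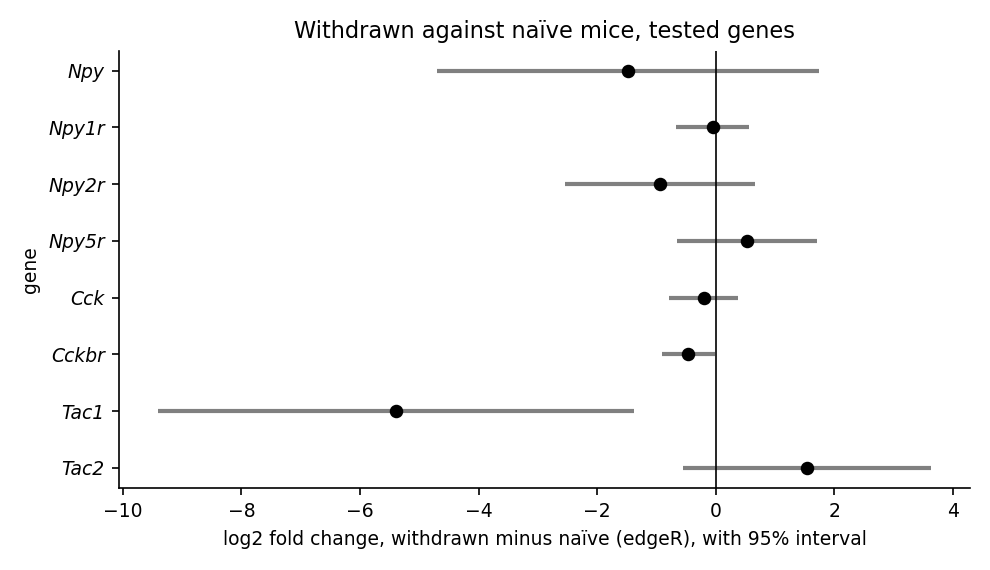
The edgeR log2 fold change (point) of withdrawn over naïve mice with its 95% interval (line) for the 8 tested genes. Only the intervals of Cckbr and Tac1 leave out 0, before adjustment for the number of genes, and those of Npy, Tac1 and Tac2 are the widest.

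Tac1 (ENSMUSG00000061762, chromosome 6, 7554879 to 7565834, plus strand) encodes the precursor of substance P and neurokinin A. Its CPM in naïve mice had a lowest value of 0, a median of 7.98 and a highest value of 34.7. The 5 withdrawn mice had 0, 0, 0, 1.48 and 0.0707 CPM, from 0, 0, 0, 12 and 1 counts. Thus 4 of 6 naïve mice held Tac1 at 6.52 CPM or above, 2 naïve mice had no count, and of the withdrawn mice only mouse 4 was above the floor of 3 counts. The groups overlapped at 0. The fitted log2 fold change was -5.39 (SE 1.87, 95% interval -9.41 to -1.37), with an edgeR adjusted p of 0.457 and an unadjusted p of 0.0123, and the size of such a fold rests on few counts in the withdrawn mice. Leaving out any of naïve mice 1, 2, 4 or 6 put Tac1 below the filter on low counts. Without the 3 mice of conflicting labels the log2 fold change was -10.37 (edgeR adjusted p = 0.789).

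The neurokinin 1 receptor gene Tacr1 (ENSMUSG00000030043, chromosome 6, 82402334 to 82560104, plus strand), whose main ligand is substance P, was below the filter. Naïve mice had a lowest CPM of 0, a median of 1.54 and a highest of 12.0. Withdrawn mice had 0, 0, 0.0467, 0.369 and 0 CPM, that is, at most 3 counts in any of them, against 10 to 195 counts in 4 of the naïve mice. On the log2 CPM scale with a prior count of 2, withdrawn mice differed from naïve mice by -2.83 (exact permutation test, two-sided, p = 0.0433, where the smallest p this design allows is 0.00216). Leaving out single mice moved that p between 0.0159 and 0.0873 by the same exact test, and past 0.05 in 8 of 11 cases. DESeq2 called Tacr1 lower at an adjusted p of 0.0304, and without the low-count filter edgeR gave an adjusted p of 0.299. Without the 3 mice of conflicting labels the remaining 2 withdrawn mice had no Tacr1 count. The edgeR log2 fold change was then -8.56 (edgeR adjusted p = 0.789). The neurokinin 3 receptor gene Tacr3 (ENSMUSG00000028172, chromosome 3, 134829007 to 134934579, plus strand), the receptor for neurokinin B, was not detected in 10 of 11 mice. There a count of 0 allows up to 0.408 CPM before the TMM factors. Withdrawn mouse 1 held 71 counts of Tacr3, 5.11 CPM. The exact permutation test gave p = 0.455 for Tacr3. Withdrawn mouse 1 is not among the 3 mice of conflicting labels, and the Tacr3 difference without those 3 mice was not computed.

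Tac2 (ENSMUSG00000025400, chromosome 10, 127724478 to 127731768, plus strand) encodes the precursor of neurokinin B. Naïve mice ranged from 0.679 to 15.5 CPM with a median of 6.89. The withdrawn mice had 4.25, 50.9, 0.420, 5.41 and 55.5 CPM. Withdrawn mice 2 and 5 thus lay above every naïve mouse, while withdrawn mouse 3 lay below all of them, and the withdrawn median of 5.41 CPM was near the naïve one. The fitted log2 fold change was 1.54 (SE 0.97, 95% interval -0.55 to 3.63, edgeR adjusted p = 0.816), and it became -0.46 when limma's voom weighted the libraries by quality. It was 1.04 without withdrawn mouse 2 and 0.90 without withdrawn mouse 5.

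Npy (ENSMUSG00000029819, chromosome 6, 49822710 to 49829507, plus strand) had no common level in either group. Naïve mice had 184, 203, 2.06, 0, 4.94 and 117 CPM, and withdrawn mice had 2.67, 0, 2.24, 84.6 and 63.7 CPM. In each group there were mice at 63.7 CPM or above and mice at 4.94 CPM or below, and none between. The standard deviation of log2 CPM among naïve mice was 4.27, at percentile 99.98 of all genes tested. The fitted log2 fold change was -1.48 (SE 1.5, 95% interval -4.69 to 1.73, edgeR adjusted p = 0.902), an interval that runs from far lower to far higher levels. Its value ran from 0.13 with voom quality weights to -5.93 without the 3 mice of conflicting labels (edgeR adjusted p = 0.789).

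Npy1r (ENSMUSG00000036437, chromosome 8, 66697192 to 66706792, plus strand) encodes the Y1 receptor, and it was among the steadier genes of the set. Naïve mice had a lowest CPM of 31.5, a median of 56.8 and a highest of 63.4, and withdrawn mice had 68.4, 59.3, 52.8, 20.7 and 47.0 CPM. All mice but withdrawn mouse 4 lay between 31.5 and 68.4 CPM. The log2 fold change was -0.05 (SE 0.28, 95% interval -0.67 to 0.56, edgeR adjusted p = 0.984). Its sign turned without withdrawn mouse 4, to 0.14, and without the 3 mice of conflicting labels, to 0.26. The gene for the Y5 receptor, Npy5r (ENSMUSG00000044014, chromosome 8, 66679965 to 66688128, minus strand), lies 9063 bases from Npy1r and is read in the opposite direction. Naïve mice had 0.926 to 13.7 CPM with a median of 9.89, and withdrawn mice had 13.4, 8.62, 12.8, 18.2 and 11.0 CPM. The lowest value, 0.926, belonged to naïve mouse 6, and the other 5 naïve mice overlapped with the withdrawn mice. The log2 fold change was 0.53 (SE 0.55, 95% interval -0.65 to 1.71, edgeR adjusted p = 0.904), 0.29 without naïve mouse 6 and 0.27 without the 3 mice of conflicting labels.

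Npy2r (ENSMUSG00000028004, chromosome 3, 82538383 to 82548084, minus strand) encodes the Y2 receptor, best known as a presynaptic receptor. Naïve mice had 2.90 to 17.4 CPM with a median of 11.0, and withdrawn mice had 12.2, 6.04, 0.420, 1.60 and 8.14 CPM. Of the withdrawn mice, 4 of 5 were below the naïve median and 2 below every naïve mouse, and the rest overlapped. The log2 fold change was -0.94 (SE 0.74, 95% interval -2.54 to 0.66, edgeR adjusted p = 0.865). The 2 lowest are withdrawn mice 3 and 4, whose labels conflict, and without the 3 such mice the log2 fold change was -0.30 (edgeR adjusted p = 0.962). With voom quality weights it was -1.82 (limma adjusted p = 0.545). As shares of the summed TPM of these 3 receptors, Npy1r made up 53.4 to 75.8% in naïve and 44.1 to 76.9% in withdrawn mice, Npy2r 3.54 to 29.0% and 0.609 to 12.6%, and Npy5r 1.69 to 22.1% and 15.1 to 52.5%. Npy1r was the most abundant of the 3 in 10 of 11 mice, the exception being withdrawn mouse 4.

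Cck (ENSMUSG00000032532, chromosome 9, 121489824 to 121495694, minus strand) had a lowest CPM of 1128, a median of 1516 and a highest of 3053 in naïve mice. Withdrawn mice had 1343, 1833, 1482, 834 and 1940.2 CPM. The highest value was in naïve mouse 1 and the lowest in withdrawn mouse 4, and the remaining 9 mice of both groups lay in the same range. The log2 fold change was -0.20 (SE 0.27, 95% interval -0.78 to 0.38, edgeR adjusted p = 0.934), and 0.0509 without naïve mouse 1.

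Cckbr (ENSMUSG00000030898, chromosome 7, 105425731 to 105470898, plus strand) encodes the CCK-B receptor, the main cholecystokinin receptor of the brain. Naïve mice had 153 to 269 CPM with a median of 169.6, and their spread on the log2 scale, an SD of 0.29, was at percentile 12.1 of all genes tested. The withdrawn mice had 128, 135, 134, 82.3 and 191 CPM. Of these, 4 of 5 were below every naïve mouse, and withdrawn mouse 5 was above all naïve mice but the highest, naïve mouse 5. The log2 fold change was -0.46 (SE 0.21, 95% interval -0.91 to -0.01), with an edgeR adjusted p of 0.686 and an unadjusted p of 0.0465. It was -0.31 without naïve mouse 5 (edgeR adjusted p = 0.776) and -0.33 without withdrawn mouse 4 (edgeR adjusted p = 0.997), and -0.63 without withdrawn mouse 5 (edgeR adjusted p = 0.427). Leaving out single mice moved the unadjusted edgeR p between 0.0096 and 0.125, and past 0.05 in most cases. Under the other alternatives the unadjusted p ran from 0.0258 (edgeR, replicate block) to 0.147 (edgeR, non-neuronal score as covariate). The ratio of Cck to Cckbr TPM was 10.4 to 40.5 in naïve and 22.2 to 29.7 in withdrawn mice, so that ligand mRNA exceeded receptor mRNA in all 11 mice.

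Other genes of these families were nearly absent. Pyy, Ppy, Npy4r, Npy6r, Gast, Cckar, Tac4 and Tacr2 were all below the low-count filter, so 0 of 8 were tested, and Pyy had no count in any mouse. Tac4, which encodes further tachykinins, held 58 counts in naïve mouse 5, and the CCK-A receptor gene Cckar held at most 28, in withdrawn mouse 2.

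The members with high values in some mice only were compared with the somatostatin gene Sst and with the marker lists of other cells, mouse by mouse. Naïve mice 1, 2 and 6 were the highest 3 of the 11 for Npy, Tac1, Tacr1 and Sst. Sst was at 699, 473 and 289 CPM in these mice, at 23.3, 0.175 and 0.0677 CPM in the other naïve mice, and at 0, 0, 0, 32.6 and 0.0707 CPM in the withdrawn mice. Its log2 fold change was -5.33 (edgeR adjusted p = 0.545). Tac1, Sst and Cort, the gene of the related peptide cortistatin, had the 3 most negative log2 fold changes of all 17093 genes tested, with -3.69 for Cort (edgeR adjusted p = 0.590). None of the 3 was called, and Cort was named after its value was seen. Cort was at 8.27 and 20.2 CPM in naïve mice 1 and 2 and at 0 to 0.864 CPM in the other naïve mice. The withdrawn mice had 0 to 0.794 CPM of Cort, so that the groups overlapped at low levels. Tac1 and Sst were each above 3 counts in 4 of 6 naïve and 1 of 5 withdrawn mice, so they passed the low-count filter mainly through naïve mice. Genes below that filter are not in this ranking, such as Tacr1, at -5.44 by edgeR with no filter. Npy and Sst parted in withdrawn mouse 5, which had 63.7 CPM of Npy beside 0.0707 CPM of Sst, and Tac1 and Sst parted in naïve mouse 4, with 6.52 and 0.175 CPM. Tac2 was highest in withdrawn mice 5 and 2, and the interneuron peptide gene Vip in withdrawn mice 2 and 1, at 259 and 149 CPM. These groupings of mice were seen in the values and were not tested.

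The same naïve mice 1, 2 and 6, with withdrawn mouse 4, also had the 4 highest scores, as mean log2 CPM, for endothelial markers (4.78, 5.35, 5.66 and 5.83, against -1.84 to 3.73 in the other mice) and for astrocyte markers (3.74, 5.12, 4.86 and 5.10, against -0.13 to 2.77). All 6 endothelial genes were tested, with summed levels of 3.18 to 616 CPM in naïve and 38.3 to 470.4 CPM in withdrawn mice, and 5 of 6 astrocyte genes, with 149 to 399 and 192 to 528 CPM. The part of such cells in the levels of Npy, Tac1 and Tacr1 was not tested. The interneuron subtype score was highest in these same 4 mice, at 3.82, 3.96, 3.30 and 3.21 against 0.66 to 2.46 in the others. That list holds Sst itself, which was also highest in these 4 mice, but not Npy, Tac1 or Tacr1. The match of this score with these mice is therefore not separate from Sst, and a score without Sst was not computed. The list of pan-GABAergic genes, which holds no peptide gene, put the mice in another order. Its score was highest in withdrawn mice 2 and 1 (4.41 and 3.83) and in naïve mouse 3 (3.37), and its difference between groups was 0.24 (exact permutation test, p = 0.779). Of the 9 GABAergic genes, 8 were fitted higher in withdrawn mice and 0 had an unadjusted p under 0.05. With this score as a covariate, Tac1 had a log2 fold change of -5.19 and Npy of -1.04.

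**Figure D4:**
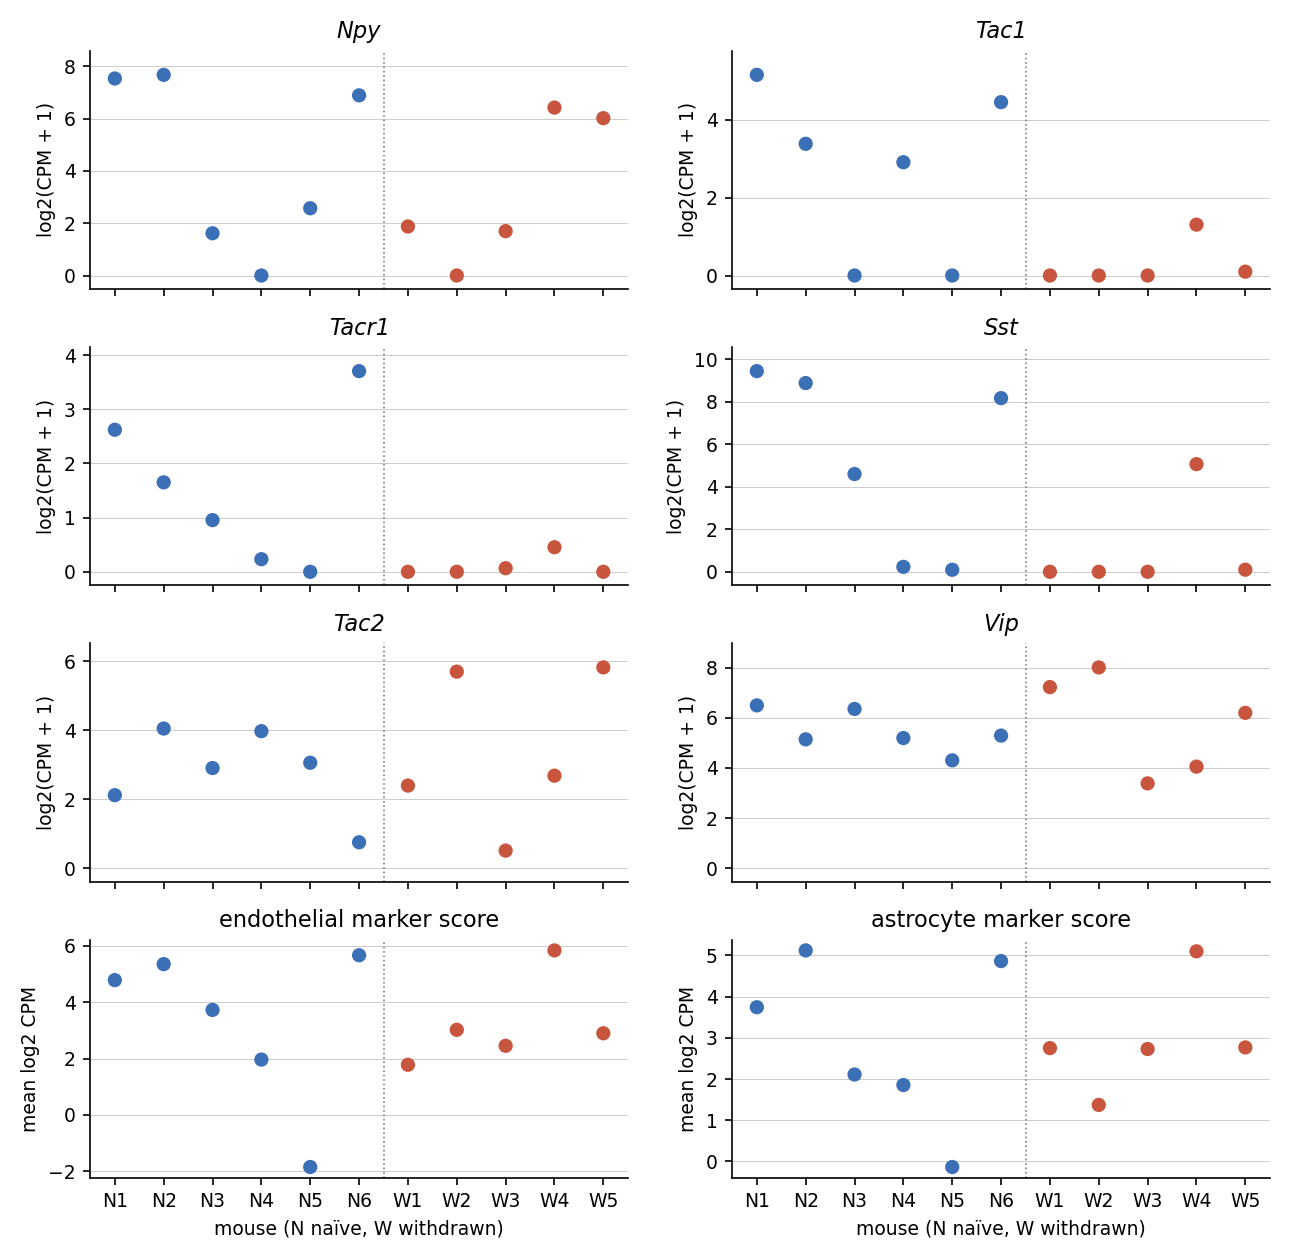
Npy, Tac1, Tacr1, Sst, Tac2 and Vip on log2(CPM + 1) axes and the endothelial and astrocyte marker scores as mean log2 CPM in each mouse (N1 to N6 naïve, W1 to W5 withdrawn). N1, N2 and N6 are the highest for Npy, Tac1, Tacr1 and Sst, and with W4 they have the highest endothelial and astrocyte scores.

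Among the 9 marker scores, that of fibroblast markers had the largest difference between groups. Of its 7 genes 6 were tested, all fitted higher in withdrawn mice and 5 with an unadjusted p under 0.05. Of all 17093 genes tested, 854 were fitted higher with an unadjusted p under 0.05. The summed level of the fibroblast genes was 0.0677 to 72.7 CPM in naïve and 18.4 to 1318 CPM in withdrawn mice. The score differed by 3.31 (exact permutation test, p = 0.026, adjusted 0.338 over 13 measures of composition and quality), and edgeR called 0 of the 6 genes and DESeq2 3. The collagen gene Col1a1 was at 5.58 ± 6.6 CPM (SD, n = 6) in naïve and 165 ± 145 CPM (n = 5) in withdrawn mice. In the remaining marker lists edgeR called no gene, and DESeq2 called 1, the oligodendrocyte precursor gene Gpr17. The astrocyte gene Gja1 was at 15.3 ± 12.0 CPM in naïve and 187 ± 122 CPM in withdrawn mice. Its log2 fold change was 3.61 (edgeR adjusted p = 0.250, and 0.0398 with no low-count filter). Of the tested glutamatergic genes 2 were fitted higher and 6 lower, of the interneuron subtype genes 5 and 4, of the astrocyte genes 1 and 4, of the microglia genes 1 and 2, of the oligodendrocyte genes 1 and 4, of the oligodendrocyte precursor genes 3 and 0, and of the endothelial genes 2 and 4. With the score over the non-neuronal markers as a covariate, the log2 fold changes were -0.26 for Cckbr, -2.71 for Npy and -8.70 for Tac1 (edgeR adjusted p = 0.942, 0.932 and 0.408).

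Across the 11 mice each of the 10 genes was also compared with the glutamatergic and GABAergic scores, which makes 20 relations. The closest was that of Cck with the glutamatergic score. Pearson's r was 0.72 (permutation test, p = 0.0092, adjusted 0.184) and Spearman's rho 0.77 (permutation test, p = 0.0076, adjusted 0.151). It was 0.56 without the 3 mice of conflicting labels (permutation test over 8 mice, p = 0.153), 0.50 without the 2 mice farthest from the median score, withdrawn mouse 4 and naïve mouse 5, and 0.52 within the 6 naïve mice, so that part of it rests on those mice. For Npy1r and the same score r was 0.66 (permutation test, p = 0.0323, adjusted 0.323) and rho 0.55 (permutation test, p = 0.0826, adjusted 0.650), and r was 0.0323 without the same 2 mice and 0.29 without the 3 mice of conflicting labels. For Cckbr and the GABAergic score r was -0.27 (permutation test, p = 0.415, adjusted 0.837) and rho -0.30 (permutation test, p = 0.370, adjusted 0.877). It was -0.93 within the 6 naïve mice and -0.94 over the 8 mice without conflicting labels (permutation test, p = 0.00045, not adjusted), but 0.0439 over the 10 mice without naïve mouse 5, which had the highest Cckbr and a GABAergic score of 0.54. None of the 20 relations over all 11 mice passed the adjustment.

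**Figure D5:**
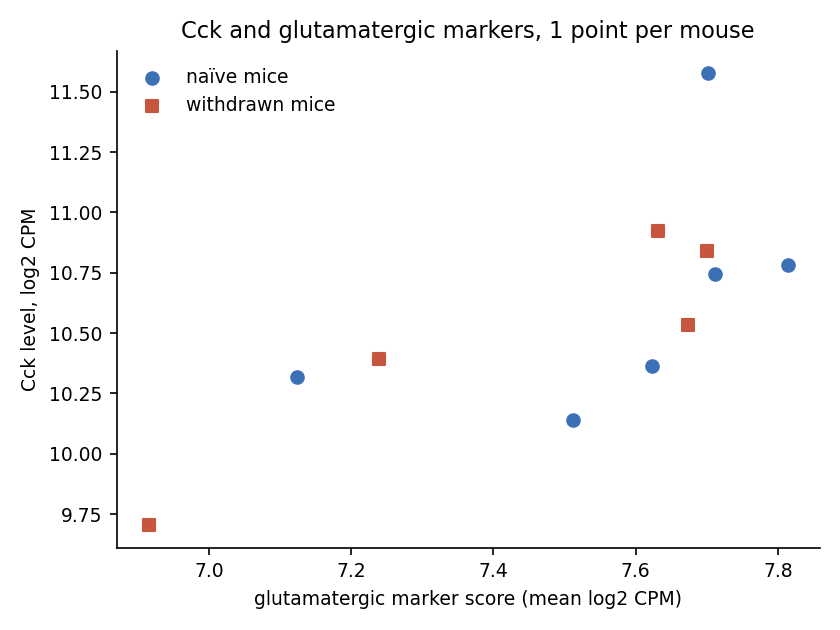
Cck level (log2 CPM) against the mean log2 CPM of 8 glutamatergic marker genes, 1 point per mouse, circles naïve and squares withdrawn. The lowest point is withdrawn mouse 4 and the highest naïve mouse 1, and naïve and withdrawn mice lie along the same range.

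Genes with the pattern most like a member's were ranked over the 17093 tested genes by Pearson's r of log2 CPM, taken after the mean of each group was removed, over 11 mice. For Cck these were Cacng3 (r = 0.94), an AMPA receptor auxiliary subunit gene, Cox6a1 (0.94), a subunit of cytochrome c oxidase, and Camk2n1 (0.93), an inhibitor of CaM kinase II. For Npy they were Dnajb3 (0.91), Rpf1 (0.90) and Coro6 (0.90), and Sst ranked 75 (0.78). For Tac1 they were Gm43692 (0.97), Xaf1 (0.94) and Slc40a1 (0.94), the iron exporter ferroportin, with Sst at rank 785 (0.67). For Tac2 they were Cfap69 (0.95), Espnl (0.90) and Cxcl14 (0.90), a chemokine gene, with Vip at rank 684 (0.51). All points share the libraries and their depth, and each of these is among the highest of 17093 values computed over 11 mice. The genes also differ in level. Naïve medians were 267 to 534 CPM for the genes most like Cck. They were only 2.96 CPM for Dnajb3, 0.965 for Gm43692 and 0.703 for Espnl, and 3.24 to 18.7 CPM for the others most like Npy, Tac1 and Tac2. At low levels such likeness can rest on few counts.

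The machinery that makes, degrades and reads these peptides was described by lists of genes. In none of these lists did edgeR call a gene, and DESeq2 called 1, Anpep. For peptide processing and dense-core vesicles, 16 of 16 genes were tested, 14 fitted lower and 2 higher, with a median log2 fold change of -0.20 and 3 of the 16 with an unadjusted p under 0.05, all lower. Of all 17093 genes tested, 8852 were fitted higher and 8241 lower, and 2.22% were lower with an unadjusted p under 0.05. The granin genes Scg2 (437 ± 107 CPM, SD, n = 6, against 261 ± 86.4, n = 5, log2 fold change -0.74, edgeR adjusted p = 0.336) and Scg3 (192 ± 29.0 against 132 ± 24.6 CPM, -0.54, edgeR adjusted p = 0.336) had the smallest p. Of 9 peptide-degrading peptidases, 6 were fitted higher and 3 lower, with a median of 0.46. Among them Anpep, encoding aminopeptidase N, was at 0.524 ± 0.469 CPM in naïve and 12.6 ± 11.3 CPM in withdrawn mice (log2 fold change 4.54, edgeR adjusted p = 0.202, DESeq2 adjusted p = 0.00081, and edgeR adjusted p = 0.0364 without withdrawn mouse 2), and Prep, encoding prolyl endopeptidase, at 41.4 ± 10.8 and 57.0 ± 17.5 CPM (0.46, edgeR adjusted p = 0.776).

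Of 19 genes for the G proteins, channels and effectors below these receptors, 8 were fitted higher and 11 lower, with a median of -0.10. The smallest p belonged to Kcnj3, a subunit of the GIRK potassium channel, at 70.2 ± 14.4 CPM in naïve and 48.3 ± 8.12 CPM in withdrawn mice (log2 fold change -0.54, edgeR adjusted p = 0.491), and to Gnaq, the Gq alpha subunit, at 245 ± 37.9 and 189 ± 26.1 CPM (-0.37, edgeR adjusted p = 0.567). Among 14 other peptide genes of cortical neurons, 13 were tested, 6 fitted higher and 7 lower. Besides Sst, the smallest p was that of the enkephalin precursor Penk, at 141 ± 71.5 CPM in naïve and 294 ± 179 CPM in withdrawn mice (log2 fold change 1.07, edgeR adjusted p = 0.553).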

How the data were processed

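The authors isolated sorted CRF1+ cells from the mPFC of single mice, amplified cDNA from 160 pg of RNA, trimmed the reads, mapped them with STAR to GRCm38 and counted them per gene with HTSeq. The deposited values are raw counts per Ensembl gene and mouse. Whether HTSeq counted by strand is not given in the sources used here. Exons of the 10 genes overlap no other gene's exons in GENCODE M21, which gave symbols and coordinates on the same assembly.

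CPM are counts divided by the library size and scaled by TMM factors, and TPM used summed exon lengths. Counts were normalized by TMM and tested with edgeR 4.0.16 in R 4.3.3 (filterByExpr by group with a minimum count of 10 and minimum total of 15, quasi-likelihood test, Benjamini-Hochberg adjustment). The SE is the size of the log2 fold change divided by the square root of F. Log2 CPM used a prior count of 2. For the genes below the filter, log2 CPM was compared by the exact permutation test over 462 splits, and correlations used 100000 resamples. DESeq2 1.42.0 and limma 3.58.1 were alternatives. Every p measures the spread between single mice. On simulated counts for 17093 genes with 200 of them changed by 3 on the log2 scale, edgeR recovered 64.5% with 4 false calls and DESeq2 75% with 53. The simulated counts used the dispersions that edgeR fitted. A change of 3 is larger than the fitted difference of every tested gene of the set but Tac1. These rates therefore do not tell how often smaller differences would be called. No 2 libraries were duplicates, as the chi-square per degree of freedom was at least 29.3 between any pair.

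The genes and lists were chosen with earlier results of these data known. Besides the 10 genes and the other family genes, the text names the 2 genes with the smallest p in each list of peptide machinery and other peptides. It also names the genes most like Npy, Cck, Tac1 and Tac2. Of the cell marker lists only some genes are named. Endothelial, astrocyte, fibroblast, glutamatergic, GABAergic, microglia, oligodendrocyte, oligodendrocyte precursor and interneuron subtype markers were tested likewise, with no edgeR call in the main fit. With no low-count filter edgeR called the astrocyte gene Gja1 and the fibroblast genes Col1a1, Col1a2 and Ogn. Without withdrawn mouse 2 it called Gja1, Col1a1 and Ogn. The alternatives were other normalizations, filters, tests, covariates, pairing by replicate number, leaving out single mice and leaving out the 3 mice of conflicting labels.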

Additional observations from a re-analysis of the deposited data

Results flagged for a closer look

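Among 23 sets of values tested for a mouse far from its group, 5 had one, where a rate of 1 in 20 would give 1.15. In the withdrawn sets of Tac1, Tacr1 and Tacr3, the mice not flagged had 0 or 1 counts, so almost any count stands apart. That rate does not hold for such sets, so the number 5 cannot be set against 1.15. Npy5r stood apart in naïve mouse 6, at a log2 CPM of 0.10, below the other naïve mice. Cckbr was high in naïve mouse 5, at 8.07. In withdrawn mouse 4, Tac1 had a log2 CPM of 0.70 and Tacr1 of -0.96, above other withdrawn mice at or near 0 counts. This Tac1 value came from 12 counts, and the Tacr1 value from 3, which is itself at the floor. Tacr3 reached 2.39 in withdrawn mouse 1, the sole mouse with counts of this gene. The causes of these values were not tested.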

How the results depend on the processing

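The count of called genes, 1 of all tested, depended on the processing. It was 137 with no low-count filter, 30 with at least 10 counts in every mouse, 362 with DESeq2, 26 with genes detected as a covariate, and 0 with the GABAergic score, with the non-neuronal score, without the 3 mice of conflicting labels and with the replicate block. Leaving out single mice gave 0 to 193, the highest without withdrawn mouse 2. Called members numbered 0 under all alternatives but DESeq2, where Tacr1 made 1. The causes were not tested.

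Replicate numbers were not taken as pairs, since same-numbered mice are different animals and the labels name no pairing. Whether same-numbered mice were sorted or prepared together was not tested. Deviations of same-numbered mice correlated at -0.01, -0.06, -0.20, 0.04 and 0.18, and with the replicate block Tac1 was at -4.49 (edgeR adjusted p = 0.882), Npy at -0.22, Tac2 at 0.10 and Cckbr at -0.50 on the log2 scale.

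Of 186 alternative values for differences of the 10 genes, 169 kept direction and side of the threshold, 9 did not keep the direction and 8 were weaker. None of the 8 tested genes was called in the main fit or in any alternative. Staying uncalled therefore says little about how stable a difference is. For Cckbr, an unadjusted p that moved past 0.05 was not counted as a change. Npy turned to 0.13 and Tac2 to -0.46 with voom. Npy1r turned to 0.0012 with voom, 0.0338 with the non-neuronal score and 0.26 without the 3 mice of conflicting labels, and ran from -0.21 to 0.14 without single mice. Without single mice, Cck ran from -0.32 to 0.0509 and Tacr3 from 0 to 1.30. Tac1 ran from -8.82 to -5.03, where it could be fitted.

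Correlations of the members with the scores turned sign in 20 cases. In 3 cases r came to an unadjusted p under 0.05 that it did not have before, as for Cckbr with the GABAergic score (-0.94 without the 3 mice of conflicting labels), and in 4 it lost it. Without the 3 mice of conflicting labels, r was -0.14 for Npy2r, 0.0305 for Npy5r and -0.15 for Tac1 with the GABAergic score, and 0.0719 for Npy5r and -0.38 for Cckbr with the glutamatergic score. Without single mice, r with the GABAergic score ran from -0.14 to 0.32 for Npy, -0.24 to 0.0811 for Npy5r, -0.50 to 0.0439 for Cckbr and -0.13 to 0.26 for Tac1. With the glutamatergic score it ran from -0.43 to 0.17 for Npy2r, -0.23 to 0.12 for Npy5r, -0.37 to 0.82 for Cckbr and -0.0318 to 0.22 for Tac2.

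The order of the levels with the longest transcript as length kept 7 of 10 places. With 11 mice and amplified RNA, genes at a few CPM, such as Tac1, Tacr1 and Tacr3, are measured in some mice by a few counts.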
